A study of Saccharomyces cerevisiae with 8 samples.

Results

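The PAU, COS and YRF1 genes are families of near-identical genes that lie mostly beside the telomeres of budding yeast. Their probe sets were taken from the platform annotation of an Affymetrix yeast array, as every probe set whose gene symbols all begin with PAU or COS and a digit, or with YRF1. This gave 47 of the 9275 probe sets that are not controls: 22 for PAU, 22 for COS, 2 for YRF1 and 1 for COS111. COS111 shares only the first letters of its name with the COS family, so it was kept apart. A further 22 probe sets name YRF1 genes beside other reading frames of the same repeat; they are outside the 47 and are given separately as shared Y-prime probe sets.

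PAU genes (seripauperins) encode small serine-poor relatives of cell wall mannoproteins and are known as genes that yeast uses under low oxygen and during wine fermentation. COS genes encode membrane proteins that help to sort other membrane proteins into endosomes for breakdown. YRF1 genes encode a putative helicase inside the Y-prime element, a repeat found at many chromosome ends that is amplified in yeast survivors lacking telomerase. Genes this close to telomeres can be silenced by the Sir proteins.

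The 4 strains were not1-2, spt3, the not1-2 spt3 double mutant and the wild-type reference, with 2 arrays each. NOT1 (CDC39) encodes the scaffold of the Ccr4-Not complex, which acts in transcription and in mRNA decay, and SPT3 encodes a SAGA coactivator subunit that contacts the TATA-binding protein. All 8 cultures, wild type included, were shifted to 37.5 °C, the temperature that restricts not1-2, after 24 h at 30 °C in rich glucose medium, and RNA was taken at an optical density of 0.8. How the alleles were made, the strain background and the array software are not given in the sources used here. The comparisons address the effect of either mutation by itself and whether losing SPT3 alters what not1-2 does.

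Signals below are linear intensities centred on each array's median, with values under 1.72 set to that floor. SPT3 itself was at this floor in both strains that lack it, 4 arrays in all, against signals of 29.9 and 22.8 in not1-2 and 25.3 and 15.5 in wild type, as the labels say. CDC39 lay -0.06 on the log2 scale from wild type in not1-2, and since the nature of the allele is not given, its level checks no label. The arrays also differed in ways that touch the results. The ratio of the 3' to the 5' control probe set of ACT1, a measure of RNA quality, was 36.8 on not1-2 replicate 1, 5.83 on spt3 replicate 1, 12.2 on double-mutant replicate 1 and 199.1 on wild-type replicate 1, and between 1.79 and 2.10 on the 4 replicate 2 arrays. The summed signal of 7 a-specific genes was between 43.4 and 101 on the 6 mutant arrays and 9339 and 2717 in wild type, and the sum of 4 alpha-specific genes was between 873 and 2418 in the mutants and 99.4 and 109 in wild type. TRP1, a common marker gene, had signals of 36.0 to 56.2 in spt3 and the double mutant and was at the floor in not1-2 and wild type. The part that RNA quality, mating type or the marker plays in any difference below was not tested beyond the values given.

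The probe sets of these families overlap in what they measure. All 24 PAU genes are named by at least 1 probe set, 15 of them by several and PAU9 by 7. Of the 22 PAU probe sets 10 name 1 gene and 12 name several, up to 8, and 21 end in _f_at, a suffix with which Affymetrix marks probes that are not unique. A probe set annotated with a single PAU gene may therefore also read other PAU transcripts. The COS probe sets name 11 genes, 15 of them 1 gene each, and COS7 is on 5. Both YRF1 probe sets are shared, by 8 and 7 genes. Probe sets of a family are thus repeated readings of overlapping transcripts and not independent genes.

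In the order of protein-coding genes along the R64 assembly, used here only to place neighbours, 19 of 24 PAU genes were among the last 10 genes of a chromosome arm, with a median place of 3 from the end. The exceptions were PAU7 (YAR020C) at place 15, PAU2 (YEL049W) at 30, PAU17 (YLL025W) at 39, PAU5 (YFL020C) at 46 and PAU23 (YLR037C) at 100. All 11 COS genes lay within the last 6 places and all 8 YRF1 genes within the last 2. COS111 (YBR203W) lay at place 100, away from the end. Of the 47 probe sets 42 passed the filter on low signals and could be tested: 21 PAU, 19 COS and both YRF1. The weakest that passed was a COS9 probe set, with a highest strain mean of 7.11, and the strongest that did not was the probe set shared by PAU22, PAU19 and PAU21, at 5.11.

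PAU signals were lowest in the strains that lack SPT3. The median over the 22 probe sets was 703.5 and 98.6 in not1-2, 71.2 and 39.2 in spt3, 53.4 and 50.1 in double-mutant cells and 167.7 and 94.9 in wild type (replicates 1 and 2). Both arrays of spt3 and of the double mutant were under both wild-type arrays. The not1-2 arrays lay far apart, replicate 1 above every other array and replicate 2 close to wild-type replicate 2. Replicate 1 of not1-2 was the highest array for 21 of the 22 probe sets, and spt3 replicate 2 was the lowest for 17. In RNA from whole cultures, fewer cells with a transcript and less transcript per cell cannot be told apart.

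**Figure D1:**
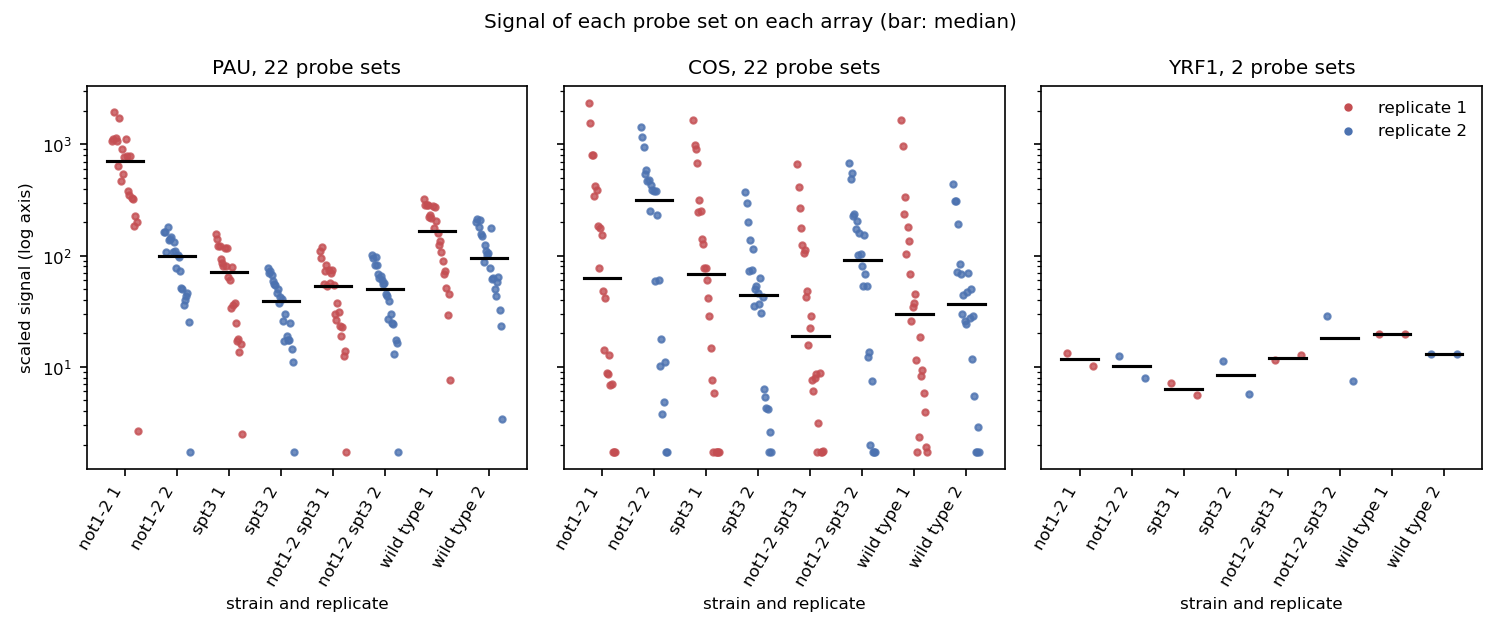
Scaled signal (log axis) of each PAU, COS and YRF1 probe set on each of the 8 arrays, with replicate 1 in red, replicate 2 in blue and a bar at the family median. PAU medians were 703.5 on not1-2 replicate 1 and between 39.2 and 71.2 on the arrays of spt3 and the double mutant, against 167.7 and 94.9 in wild type.

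PAU3 (YCR104W), a subtelomeric member measured by a probe set of its own, shows the pattern. Its signals were 323 and 39.8 in not1-2, 16.9 and 17.3 in spt3, 19.0 and 24.0 in double-mutant cells and 72.7 and 57.4 in wild type. The 4 arrays without SPT3 lay under the 4 arrays with it, and spt3 and the double mutant were close to each other. PAU17 (YLL025W), away from the chromosome end, had 184 and 43.2 in not1-2, 17.7 and 24.5 in spt3, 22.8 and 13.0 in double-mutant cells and 51.6 and 64.7 in wild type. PAU23 (YLR037C), the PAU gene farthest from an end, had 635 and 142 in not1-2, 85.7 and 56.0 in spt3, 81.6 and 68.4 in double-mutant cells and 230.1 and 148 in wild type. Both showed the same separation as PAU3.

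The probe set shared by PAU7 and PAU5 showed the lowest estimate for spt3 in the family. It gave 783 and 96.4 in not1-2, 33.8 and 25.8 in spt3, 29.5 and 43.6 in double-mutant cells and 125 and 178 in wild type, so not1-2 replicate 2 lay between the strains without SPT3 and wild type. PAU7 (YAR020C) on its own probe set had 229 and 46.5 in not1-2, 13.7 and 14.3 in spt3, 12.4 and 17.4 in double-mutant cells and 29.4 and 32.2 in wild type. Here both not1-2 arrays were above both wild-type arrays, the only PAU probe set with that order. PAU4 (YLR461W) had 1076 and 162 in not1-2, 158 and 76.8 in spt3, 109 and 102 in double-mutant cells and 326 and 199 in wild type.

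The broadly shared probe sets behaved like the single ones. The first of the pair that names 8 genes (PAU1, PAU8 to PAU14) had 1109 and 162 in not1-2, 139.9 and 70.2 in spt3, 95.8 and 95.4 in double-mutant cells and 286 and 215 in wild type. The second had 1150.5 and 181 in not1-2, 123 and 66.4 in spt3, 54.96 and 96.3 in double-mutant cells and 287 and 210.4 in wild type. One that names PAU6, PAU18 and PAU20 had 379 and 72.1 in not1-2, 78.7 and 17.1 in spt3, 26.1 and 26.7 in double-mutant cells and 135 and 61.7 in wild type, so spt3 replicate 1 overlapped the arrays with SPT3. The same overlap was seen on the pair of probe sets that names PAU1, PAU6, PAU14, PAU18 and PAU20, where spt3 replicate 1 lay above not1-2 replicate 2. The first gave 469.9 and 108 in not1-2, 117 and 45.9 in spt3, 73.6 and 65.9 in double-mutant cells and 280.2 and 126 in wild type, and the second 536 and 111 in not1-2, 116 and 37.5 in spt3, 70.0 and 55.3 in double-mutant cells and 271 and 102 in wild type. The probe set of PAU4 and PAU8 to PAU13, with 906 and 133 in not1-2, 80.3 and 50.1 in spt3, 56.9 and 59.96 in double-mutant cells and 176 and 111 in wild type, kept the strains without SPT3 apart from the others. The probe set of PAU22, PAU19 and PAU21 was faint, at 2.62 and the floor in not1-2, 2.48 and the floor in spt3, the floor on both double-mutant arrays, and 7.68 and 3.40 in wild type; it failed the filter.

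**Figure D2:**
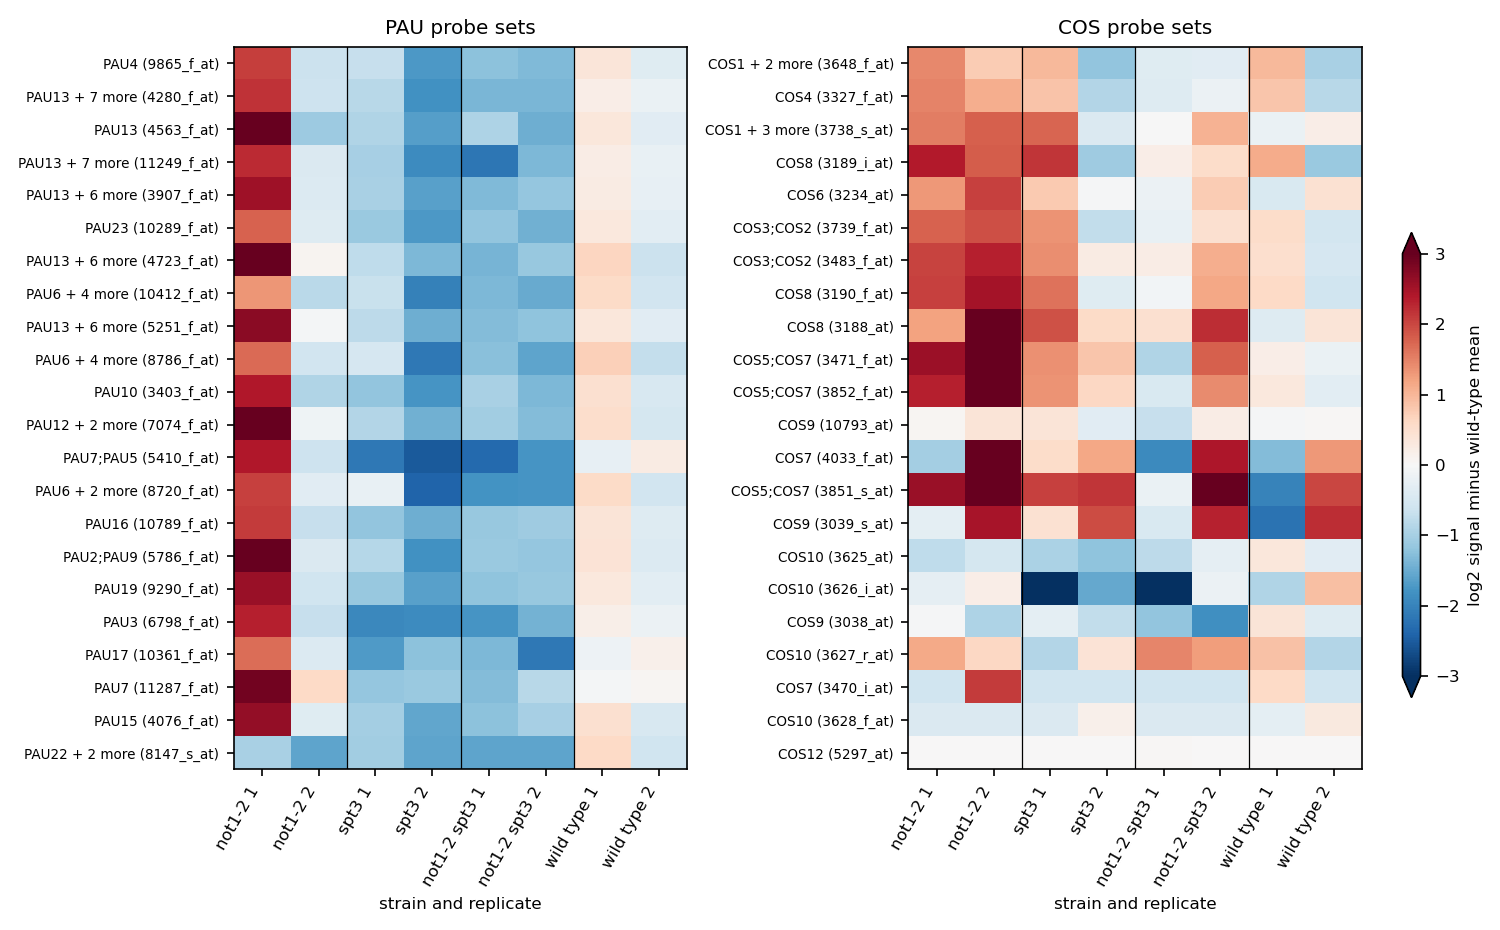
Log2 signal of each PAU (left) and COS (right) probe set on each array minus its wild-type mean, from blue (lower) to red (higher). PAU rows are blue on the 4 arrays of spt3 and the double mutant and red on not1-2 replicate 1, the highest array for 21 of 22 probe sets, while many COS rows are red on both not1-2 arrays.

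In spt3 against wild type, all 22 PAU probe sets lay below wild type in both replicate pairs. The median log2 difference was -1.32, a signal of 0.400 of wild type, and it was -1.34 in the replicate 1 pair and -1.38 in the replicate 2 pair. The range was -2.34 (PAU7 and PAU5) to -1.06. For 20 of the 22 both spt3 arrays were under both wild-type arrays, against 16.7% of all 9275 probe sets, whose median was -0.06. With 2 arrays a strain no PAU probe set passed limma: 0 of the 42 tested members were called, higher or lower, against 0.0266% of 7509 probe sets in each direction, and against 0.0533% higher and 0.24% lower with the replicate number as a block. Of the 21 PAU probe sets 1 had an unadjusted p under 0.05, against 5.38% of all 7509, or 9 with the block, against 18.2%, and the lowest blocked adjusted p was 0.184. PAU7 and PAU5 stood at -2.34 ± 0.86 (SE, adjusted p = 0.874, and 0.187 with the block).

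The double mutant differed from wild type in the same direction. All 22 lay below wild type with no overlap between the arrays, against 13% of all probe sets, and the median was -1.27 (-1.58 and -0.92 in the replicate pairs), a signal of 0.416 of wild type. Limma called 0 of the 42 members, against 0.0266% higher and 0.0133% lower over all (0.04% and 0.16% with the block). Of the PAU probe sets 2 had an unadjusted p under 0.05, against 4.23% of all, or 10 with the block, against 14.3%. This comparison shares the wild-type arrays with the one before it, so the 2 are not separate evidence.

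Set against not1-2, the double mutant had a PAU median of -2.28, a signal of 0.206, with 20 of 22 lower without overlap, against 16.1% of all probe sets. The size rested on not1-2 replicate 1: the replicate 1 pair gave -3.86 and the replicate 2 pair -0.76, and without not1-2 replicate 1 the median was -0.84, without not1-2 replicate 2 -3.79. Limma called 0 of the 42 members, against 0.0133% in each direction over all (0.173% higher and 1.28% lower with the block). Here 16 of the 21 PAU probe sets had an unadjusted p under 0.05, against 7.18% of all, and all 21 did with the block, against 18.1%, where the lowest adjusted p was 0.0541, that of PAU6, PAU18 and PAU20 (-2.65 ± 0.54, blocked SE). PAU7 stood at -2.81 ± 0.68 (adjusted p = 0.366, and 0.0563 with the block).

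PAU signals in not1-2 against wild type had no settled direction. The median was 0.87, but it was 2.07 in the replicate 1 pair and -0.22 in the replicate 2 pair. Without not1-2 replicate 1, where the ACT1 ratio was 36.8, it was -0.51, and without not1-2 replicate 2 it was 2.36. Only PAU7 was higher and only the faint PAU22, PAU19 and PAU21 probe set lower without overlap, against 12.4% higher and 16.6% lower of all probe sets. Limma called 0 of the 42 members, against 0.0133% higher and 0.0266% lower over all (0.706% and 0.639% with the block); of the PAU probe sets 1 had an unadjusted p under 0.05, against 7.32% of all, or 3 with the block, against 17.7%. PAU7 stood at 1.75 ± 0.68 (adjusted p = 0.658, and 0.183 with the block).

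Between the double mutant and spt3 the PAU median was 0.02, with probe sets between -0.47 and 0.32. Of the 22, 2 were higher and 0 lower without overlap, PAU16 (YKL224C) at 0.22 and PAU3 at 0.32, against 6.65% higher and 6.12% lower of all probe sets. Limma called 0 of 42 members and 0% of all probe sets with or without the block, and no PAU probe set had an unadjusted p under 0.05, against 0.146% of all. With a standard error of 0.67 for PAU23 and 0.85 for PAU3, this comparison could not show a small difference; the median was 0.43 without spt3 replicate 1 and -0.28 without spt3 replicate 2.

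**Figure D3:**
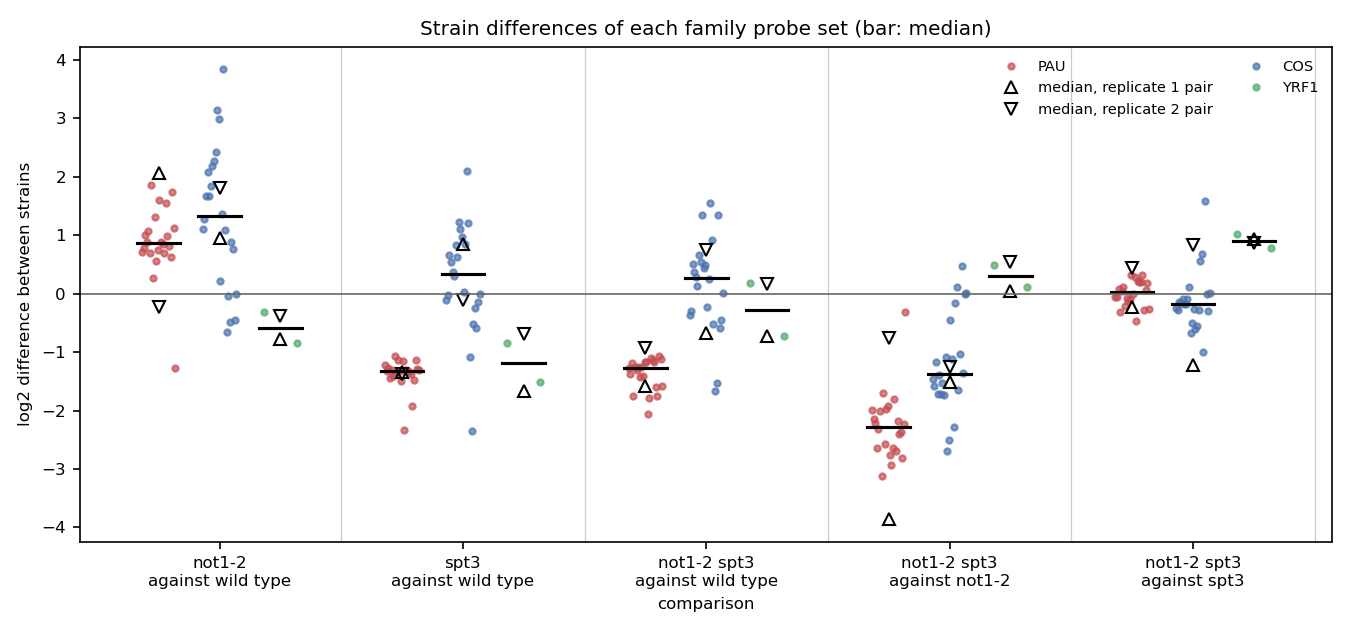
Log2 difference of each probe set in the 5 strain comparisons, with PAU in red, COS in blue and YRF1 in green, a bar at the family median and triangles at the median of each replicate pair. The PAU medians of spt3 and the double mutant against wild type were -1.32 and -1.27, and the 2 replicate pairs of not1-2 against wild type lay at 2.07 and -0.22.

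The effect of SPT3 loss averaged over both NOT1 backgrounds sets the 4 arrays without SPT3 against the 4 with it. The PAU median was -1.79, and it was -2.56 over the replicate 1 arrays and -1.07 over the replicate 2 arrays. For 17 of 22 probe sets all 4 arrays without SPT3 lay under all 4 with it, against 3.01% of all probe sets. The fit without the block called 0 of 42 members, against 0.0133% higher and 0.04% lower over all, though 20 of 21 PAU probe sets had an unadjusted p under 0.05, against 10.2% of all; the lowest adjusted p was 0.261. With the replicate number as a block 12 of the 21 PAU probe sets fell, against 4.65% of all probe sets called lower and 0.693% called higher.

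The 12 that fell had log2 differences of -2.64 to -1.52 and blocked adjusted p of 0.0199 to 0.0498. PAU7 with PAU5 fell by 2.64 (SE 0.53, adjusted p = 0.0262), PAU3 by 2.16 (SE 0.49, adjusted p = 0.0413), PAU17 by 1.92 (SE 0.40, adjusted p = 0.0283) and PAU23 by 1.71 (SE 0.32, adjusted p = 0.0199). The 9 that were not called, PAU10, PAU13, PAU15, PAU16 and PAU19 among them, had estimates of -2.09 to -1.56 and blocked adjusted p of 0.0503 to 0.108, so they lay beside the threshold and not apart from the rest in size. Probe sets that name 1 gene had a median of -1.75 and those that name several -1.91.

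These calls depended on single arrays and on the treatment of low signals. The blocked count of PAU calls was 0 without not1-2 replicate 1, where 0.146% of all probe sets were called lower, and also with the first (0.0798%) or the other (4.56%) wild-type array or double-mutant replicate 1 (0.859%) left out. It was 2 without spt3 replicate 1 (2.82% of all), 5 without double-mutant replicate 2 (1.54%), 15 without spt3 replicate 2 (7.78%) and 18 without not1-2 replicate 2 (0.458%). Without the filter on low signals 0 PAU probe sets and 0 of all 9275 were called, with a lowest PAU adjusted p of 0.132, and with the floor at the 25th percentile no member was called, against 1.99% of all in either direction. The median of the tested PAU probe sets without not1-2 replicate 1 was -1.25. With the ACT1 ratio in the fit beside the block it was -1.63, with 0 calls among PAU and 0.0666% of all probe sets called lower, at 2 residual degrees of freedom.

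**Figure D4:**
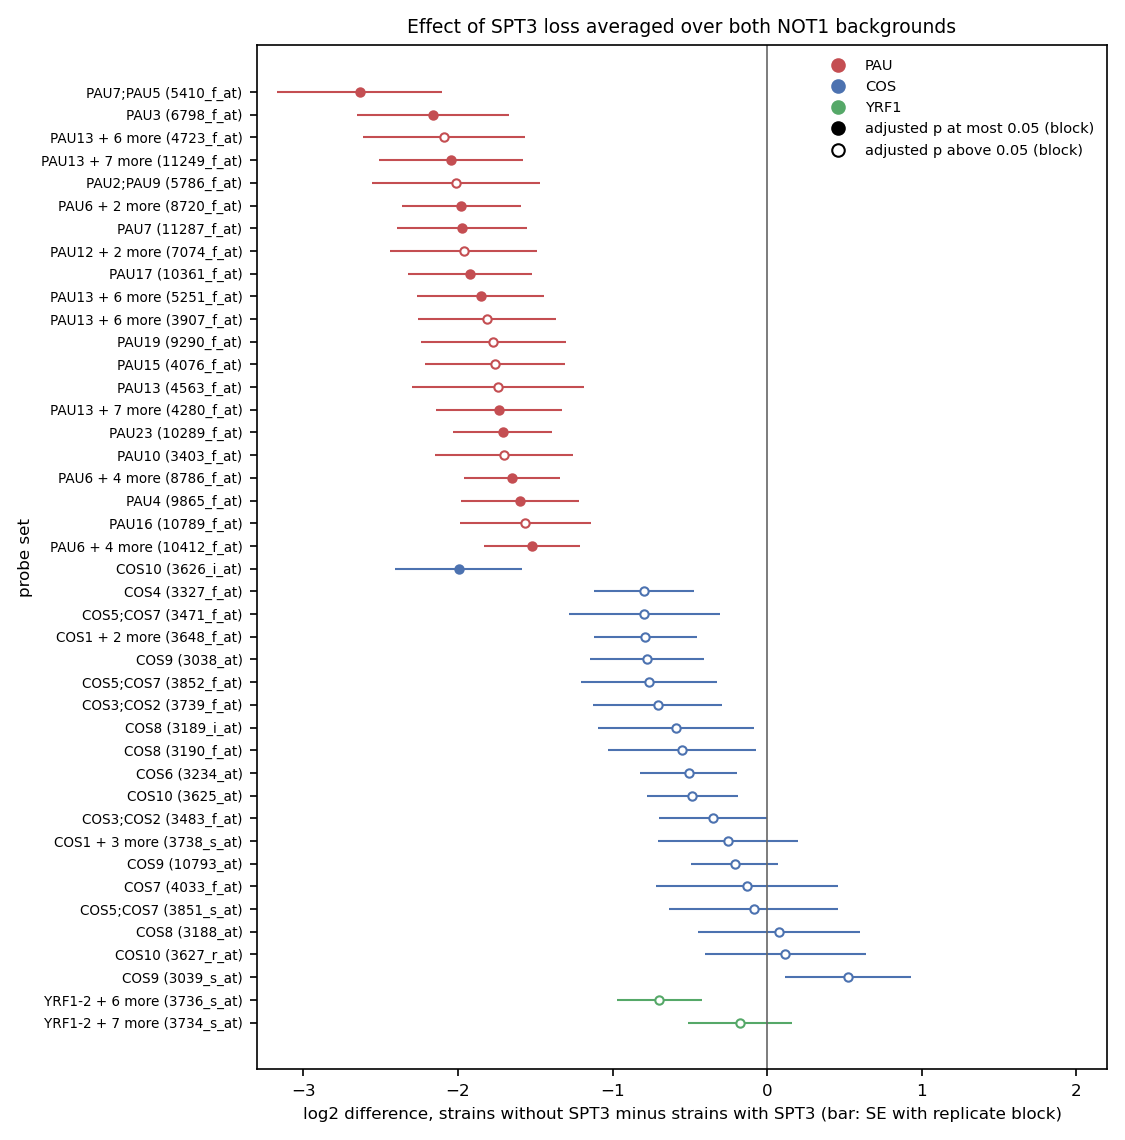
Log2 difference, strains without SPT3 minus strains with SPT3, for the 42 tested probe sets, with the SE of the blocked fit as bars and filled points where the adjusted p was at most 0.05. The 21 PAU estimates lie between -2.64 and -1.52 and the COS and YRF1 estimates, apart from 1 COS10 probe set at -1.995, between -0.80 and 0.52.

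The interaction of the mutations, which asks whether the effect of SPT3 loss differs between the NOT1 backgrounds, was not called for any of the 42 members, against 0% of all probe sets in each direction, or 0.0266% higher and 0.0133% lower with the block. No PAU probe set had an unadjusted p under 0.05 in either fit, and 3 COS and 1 YRF1 probe sets did, against 3.4% of all, or 8 and 1 with the block, against 9.93%.

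COS signals in not1-2 lay above those in wild type. The family medians were 63.0 and 318.3 in not1-2, 68.5 and 44.2 in spt3, 19.0 and 91.0 in double-mutant cells and 30.1 and 37.0 in wild type, with both not1-2 arrays above both wild-type arrays. Replicate 2 of not1-2 was the highest array for 12 of the 22 COS probe sets, whereas PAU had peaked on replicate 1. Within a strain, replicate 2 differed from replicate 1 by a median log2 of 0.31 in not1-2, -0.63 in spt3, 0.88 in the double mutant and -0.52 in wild type.

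COS5 and COS7, members of this endosomal sorting family, share a probe set that gave 152 and 384 in not1-2, 76.9 and 46.2 in spt3, 22.2 and 80.8 in double-mutant cells and 37.5 and 24.4 in wild type. Both not1-2 arrays were above all 6 others, and both spt3 arrays were above wild type. The probe set shared by COS1 to COS4 had 795 and 949 in not1-2, 918 and 201 in spt3, 269 and 558 in double-mutant cells and 238 and 313 in wild type, with spt3 replicate 1 among the high values. The probe set of COS1, COS4 and COS6 had 2335 and 1446 in not1-2, 1669 and 376 in spt3, 660.3 and 673 in double-mutant cells and 1674 and 438 in wild type. Its wild-type replicates were too far apart to separate the strains.

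Against wild type, not1-2 had a COS median of 1.33, a signal of 2.51 times wild type, with 0.95 and 1.82 in the replicate pairs and 17 of 22 above. Of the 22, 12 were higher and 2 lower without overlap, against 12.4% and 16.6% of all probe sets. Limma called 0, though 9 of 19 had an unadjusted p under 0.05, against 7.32% of all, or 12 with the block, against 17.7%; the lowest blocked adjusted p was 0.0568, that of another COS5 and COS7 probe set (3.84 ± 0.77, blocked SE), which was at the floor on wild-type replicate 1. The named COS5 and COS7 probe set stood at 2.996 ± 0.71 (adjusted p = 0.391, and 0.0586 with the block), 2.02 and 3.97 in the replicate pairs. COS6 (YGR295C) stood at 1.67 ± 0.54 (adjusted p = 0.551, and 0.119 with the block).

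The high COS values belonged to COS1 to COS8, whose probe sets had mean log2 signals between 1.26 and 9.90 over the 8 arrays. Those of COS9, COS10 and COS12 were mostly fainter, between 0.78 and 5.52, and several lay near the floor, where differences are compressed. The part that low signal plays in the gap below was not tested. The split into 14 probe sets of COS1 to COS8 and 8 of COS9, COS10 and COS12 was made after the values were seen. In not1-2 against wild type the 14 had a median of 1.97, with 11 higher and 0 lower without overlap. The 8 had a median of -0.01, with 1 higher and 2 lower. Of all probe sets 12.4% were higher and 16.6% lower. Since the split followed these values, the gap between the groups is not a test. COS8 (YHL048W), on 3 probe sets, stood between 2.09 and 2.43. COS9 (YKL219W) stood at 0.22, 1.09 and -0.48 on its 3 probe sets. COS12 (YGL263W) was at the floor on 7 arrays and 1.76 on the other, and was not tested.

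Once SPT3 was missing as well, COS signals lay lower than in not1-2 alone. The double mutant against not1-2 had a COS median of -1.37, a signal of 0.387, at -1.52 and -1.25 in the replicate pairs, and 11 of 22 were lower and 1 higher without overlap, against 16.1% and 17.5% of all probe sets; without double-mutant replicate 1 it was -0.78. For COS1 to COS8 the median was -1.55, and for the others -0.08. That split was made after the values of these same not1-2 arrays were seen, so this gap is partly built in. Limma called 0, with 5 of 19 at an unadjusted p under 0.05, against 7.18% of all, or 11 with the block, against 18.1%. The COS5 and COS7 probe set stood at -2.51 ± 0.71 (adjusted p = 0.478, and 0.0803 with the block). This comparison and the one before it share the not1-2 arrays, so a high value there enters both with opposite sign.

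The other COS comparisons had no settled direction. The median was 0.34 in spt3 against wild type (0.86 and -0.10 in the replicate pairs; 4 higher and 2 lower without overlap, against 12.9% and 16.7% of all) and 0.27 in the double mutant against wild type (-0.67 and 0.74; 2 higher and 2 lower, against 11% and 13%). Against spt3 the double mutant had -0.18 (-1.21 and 0.84; 2 higher and 1 lower, against 6.65% and 6.12%). Limma called 0 COS probe sets in each. An unadjusted p under 0.05 was seen for 1, 1 and 0 of 19, against 5.38%, 4.23% and 0.146% of all. With the block it was 3, 2 and 0, against 18.2%, 14.3% and 0.732%. Leaving out 1 array turned the sign of each median: the first was -0.19 without spt3 replicate 1, the second -0.39 without double-mutant replicate 2 and -0.01 without wild-type replicate 2, and the last 0.22 without spt3 replicate 1 and 0.38 without double-mutant replicate 1.

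Averaged over both backgrounds, SPT3 loss gave a COS median of -0.50, with 0 of 22 lower and 0 higher without overlap, against 3.01% and 2.76% of all probe sets. Without the block 0 of 19 were called, and 1 had an unadjusted p under 0.05, against 10.2% of all. With the block 1 of 19 was called lower, close to the 4.65% of all probe sets. This was a COS10 (YNR075W) probe set that fell and had a log2 difference of -1.995 (SE 0.41, adjusted p = 0.0281). Its signals were 12.8 and 17.7 in not1-2, the floor and 5.31 in spt3, the floor and 13.6 in double-mutant cells, and 8.28 and 28.6 in wild type, so 2 of the 4 arrays without SPT3 were at the floor and the size depends on it. With the ACT1 ratio beside the block it was -1.83 at adjusted p = 0.273. A second COS10 probe set, with 8.69 and 10.2 in not1-2, 7.57 and 6.35 in spt3, 8.58 and 12.2 in double-mutant cells and 18.6 and 11.7 in wild type, stood at -0.48 (blocked adjusted p = 0.349), and a further one at 0.12, so the COS10 probe sets disagreed.

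The 2 YRF1 probe sets that name no other reading frame were faint, and their signals were lowest in spt3. The probe set shared by 8 YRF1 genes had 13.3 and 12.6 in not1-2, 7.09 and 11.3 in spt3, 11.4 and 28.7 in double-mutant cells and 19.9 and 12.9 in wild type. The one shared by 7 had 10.1 and 7.87 in not1-2, 5.61 and 5.64 in spt3, 12.7 and 7.41 in double-mutant cells and 19.9 and 13.0 in wild type. On the second both wild-type arrays were above all 6 mutant arrays.

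Both YRF1 probe sets were lower in spt3 than in wild type without overlap, at -0.84 and -1.51, against 16.7% of all probe sets, and both were higher in the double mutant than in spt3 without overlap, at 1.02 and 0.78, against 6.65%. Limma called 0 in every comparison. At an unadjusted p under 0.05 there was 1 in spt3 against wild type, where 5.38% of all had such a p, and 0 in the other strain comparisons. It was the probe set of 7 genes (-1.51 ± 0.48, adjusted p = 0.822, and 0.124 with the block). The double mutant had no settled direction against wild type: the median was -0.28, but -0.73 and 0.17 in the replicate pairs and 0.035 without wild-type replicate 1. It was -0.58 in not1-2 against wild type. These comparisons had 1 lower each without overlap, against 13% and 16.6% of all. The median was 0.30 in the double mutant against not1-2, with 0 in either direction, against 17.5% and 16.1%. The average over SPT3 loss gave -0.44, again with 0 in either direction, against 2.76% and 3.01%.

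The 22 shared Y-prime probe sets, of which 20 passed the filter, varied with the replicate. Their level varied too, and some that name all 8 YRF1 genes were bright. The brightest had 988 and 603 in spt3 and 1673 and 591 in wild type. Another had 719 and 591 in spt3 and 388 and 588 in wild type. The mean log2 signal was thus lower in spt3 on the first and higher on the second. The median of the 22 was -0.96 in spt3 against wild type, with -1.31 and -0.25 in the replicate pairs and 5 lower and 1 higher without overlap, against 16.7% and 12.9% of all. In the double mutant against wild type it was -0.55, with -1.26 and 0.33 in the pairs. It was -0.16 in not1-2 against wild type, 0.02 in the double mutant against not1-2 and 0.13 against spt3. COS111 was close to the floor on every array, between 1.72 and 4.15, and failed the filter.

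The DAN and TIR genes encode cell wall mannoproteins that, like PAU genes, are used in low oxygen. All 6 (DAN1, DAN4, TIR1 to TIR4) lay below wild type in spt3, with a median of -2.34, and in the double mutant, with a median of -1.92. They also lay below wild type in not1-2, which has SPT3, with a median of -0.75 that was 0.18 in the replicate 1 pair and -1.87 in the replicate 2 pair. Limma without the block called 0 of them in each comparison. With the block 2 of 6 fell in spt3 against wild type, against 0.24% of all probe sets called lower. These were DAN1, by 4.39, and TIR3, by 2.58 (adjusted p = 0.0480 each). In the double mutant against wild type 0 fell, against 0.16% of all. In the double mutant against not1-2, 5 lay below and 1 above. There 1 fell, TIR3, by 2.11 (adjusted p = 0.0453), against 1.28% of all. Averaged over both backgrounds 3 of 6 fell with the block, against 4.65% of all. They were DAN1 by 3.75 (adjusted p = 0.00799), TIR3 by 2.35 (adjusted p = 0.00715) and DAN4 by 1.64 (adjusted p = 0.00953). Without the filter on low signals the blocked fit called 0 of 9275 probe sets in each of these comparisons, so none of these calls remained. DAN1 had 235 and 42.9 in not1-2, 8.62 and 7.84 in spt3, 9.54 and 14.0 in double-mutant cells and 133 and 222 in wild type. The 4 arrays without SPT3 were the lowest, and not1-2 replicate 2 lay below both wild-type arrays.

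Of 10 regulators of anaerobic and hypoxic genes, 1 was called lower with the block for SPT3 loss averaged over both backgrounds, against 4.65% of all probe sets. The list median there was -0.12, with 4 above and 6 below. The 1 called was UPC2, an activator of sterol uptake and anaerobic genes. It fell by 0.96 (SE 0.23, blocked adjusted p = 0.0498, and 0.450 without the block), and no other was called in that average or in the 5 strain comparisons. Without the filter on low signals the UPC2 call was lost, with 0 of all 9275 probe sets called. UPC2 had 26.0 and 37.0 in not1-2, 11.2 and 24.9 in spt3, 10.5 and 17.8 in double-mutant cells and 25.7 and 30.3 in wild type. Of 20 genes of telomere silencing and end binding, 17 were tested and 0 called in any of these comparisons with or without the block. Their median was -0.29 for not1-2, -0.20 for spt3 and -0.18 for the double mutant against wild type. In that order 16, 14 and 14 of the 20 lay below wild type, against 5232, 4995 and 5024 of all 9275 probe sets.

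Other genes near chromosome ends had medians closer to 0. Of 54 genes of other subtelomeric families, 22 had a probe set of their own and 18 were tested. In the average with the block 1 of the 18 was called lower, close to the 4.65% of all probe sets. It was AAD4, an aryl-alcohol dehydrogenase family gene, which fell by 1.36 (adjusted p = 0.0307). No other was called, and the list median was -0.31. Without the filter on low signals the AAD4 call was lost, with 0 of all 9275 probe sets called. The 245 probe sets of 187 other single genes among the last 10 of a chromosome arm had a median of -0.24 in spt3 against wild type, -0.23 in the double mutant against wild type, -0.14 in not1-2 against wild type and -0.19 in the average. Without overlap 27.8% of them were lower in spt3 than in wild type, against 16.7% of all probe sets, and 7.76% were lower in the average, against 3.01%.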

How the data were processed

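PolyA RNA from acid phenol extracts was biotin-labelled and hybridised, per the labels, and the deposited table holds an untransformed signal intensity for every probe set on every array. No source used here names the software. With 2% trimmed at either end, all arrays had a mean of 100.1, so the authors had scaled them. Of 9335 probe sets 60 controls were left out; 6504 of the rest name 1 gene, 328 several and 2443 none.

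Array medians differed by 0.419 (log2), so arrays were median-centred, the 10th percentile (1.72) served as a floor and log2 followed. Probe sets whose highest strain mean exceeded the 25th percentile (6.99), 7509, were tested with limma 3.58.1 (R 4.3.3), which fitted 4 strain means to the 8 arrays with an intensity trend; p-values were adjusted by Benjamini-Hochberg over the 7509, with 0.05 as threshold. The median standard error of a strain difference was 0.50. Calls are limma's; no overlap means that all arrays of one side lie beyond all of the other, over 9275 probe sets. Family medians use every member and carry no test.

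Whether replicates were separate cultures is not stated, and the p-values therefore cover only the spread among these arrays, possibly technical. An array has no depth; having 2 per strain limits precision. Deviations of same-numbered arrays correlated in all 6 strain pairs (r from 0.272 to 0.752 across 7509 probe sets), so the label numbers, which name no shared day, were treated as pairs; results of the blocked fit are given where a call changes.

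The members and gene lists were chosen with earlier results of these data known. Probe sets printed per array were those called in any fit, up to 12 by p, and in each family the brightest, the faintest, the one naming most genes and the one with the smallest p in spt3 against wild type, not1-2 against wild type and the double mutant against not1-2. COS6, COS8, COS9, PAU16, the shared Y-prime probe sets printed and the COS split were added after their values were seen. Other genes were counted by list. Alternatives changed the scaling, floor, filter, trend, probe sets per gene, arrays in the fit, threshold and block, and left out each array. The fit was checked on simulated data with normal noise and a shared replicate shift. These did not imitate outlying arrays or uneven RNA quality, so the check does not cover them. Promoter motifs were not searched.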

Additional observations from a re-analysis of the deposited data

Results flagged for a closer look

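On 4 of the 47 probe sets, the arrays moved without overlap in opposite directions under the same contrast in the 2 backgrounds. How many of all 9275 probe sets did so was not counted, so the 4 cannot be set against that share. Both COS5 and COS7 probe sets of this kind were on the higher side in spt3, set against wild type, and on the lower side in double-mutant cells, set against not1-2: one by 1.11 and -2.70, the other by 0.98 and -2.51 on the log2 scale. The interaction term that tests this difference was -3.81 (adjusted p = 0.999, and 0.242 with the block) and -3.49 (adjusted p = 0.999, and 0.239 with the block), not past the threshold. A COS10 probe set was lower in not1-2 than in wild type, by -0.65, and higher in the double mutant than in spt3, by 0.56, with an interaction of 1.21 (adjusted p = 0.999, and 0.542 with the block). The YRF1 probe set shared by 7 genes was at -0.85 in not1-2 against wild type and 0.78 in the double mutant against spt3, with an interaction of 1.63 (adjusted p = 0.999, and 0.394 with the block). With 2 arrays a strain such an order needs little separation, and no outlying array could be tested in groups of 2.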

How the results depend on the processing

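Every count of called members was 0 without the replicate block, under each scaling, floor, filter, trend, threshold and left-out array tried. With the replicate block the average SPT3 effect gave 13 members, against 5.34% of all probe sets called in either direction. It gave 0 without the filter (0% of all), 0 with the floor at the 25th percentile (1.99%), 0 with the ACT1 ratio (0.107%), 5 without the trend (4.19%), 7 with quantile normalization (4.97%), 8 without scaling (5.02%), 11 with the floor at the 5th percentile (4.97%), 15 with 1 probe set per gene (6.01%) and 21 at an adjusted p of at most 0.1 (10.6%). With 1 array left out it ranged over 0 to 18: 2 without spt3 replicate 1 (3.44%), 6 without double-mutant replicate 2 (1.79%), 16 without spt3 replicate 2 (12.1%), 18 without not1-2 replicate 2 (0.536%) and 0 without each of the others (0.133% to 6.43%). The count for not1-2 against wild type became 1 without scaling (1.27%), 2 with 1 probe set per gene (1.99%), 4 at 0.1 (3.16%) and 0 to 7 with 1 array left out: 7 without spt3 replicate 1 (3.67%) or 2 (3.58%), 2 without double-mutant replicate 1 (1.04%) and 1 without double-mutant replicate 2 (0.739%). For the double mutant against not1-2 it became 2 with 1 probe set per gene (2.36%), 16 at 0.1 (5.89%) and 0 to 10, the highest without spt3 replicate 1 (4.67%) or 2 (4.63%). Without spt3 replicate 2 it was 4 for spt3 against wild type (8%) and 4 for the interaction (0.984%), and 0 without each other array. The block changed no other call.

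The PAU median of spt3 against wild type was -1.22 without scaling, -1.35 over probe sets that name 1 gene and -1.71 to -0.94 with 1 array left out. The COS median of the double mutant against not1-2 was -1.14 with the floor at the 25th percentile, -1.08 over probe sets that name 1 gene and -1.77 to -0.78. The YRF1 median of the double mutant against spt3 was 0.96 without scaling, 0.78 with quantile normalization, 0.74 with the higher floor and 0.73 to 1.07; that of not1-2 against wild type was -0.89 to -0.27. YRF1 has no probe set that names 1 gene. The other medians moved by less than the spread between replicate pairs, taken as the standard deviation of the 2 pair medians. Where the pairs disagreed this spread was wide, and a median could change sign within it. For PAU in not1-2 against wild type it was 1.62, and the median went from 0.87 to -0.51 without not1-2 replicate 1. The cause of these shifts was not tested. Alternatives on top of the block, and COS111 counted with COS, were added after the data were seen. Faint probe sets, both of the YRF1 family among them, lie near the floor, where differences are compressed.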
